A study of Homo sapiens with 39 samples.

Results

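Wild-type cells of 2 human melanoma lines, A375 and WM115, were compared through 8 RNA-seq libraries, 4 of A375 wild type and 4 of WM115 wild type, out of 39 in the series. The libraries were assigned to the lines by the sample titles and column names, and no measured value entered that assignment. The library names of WM115 wild type carry a 5 that those of A375 lack, and the labels do not say whether it marks a clone, a passage or a batch. A375 and WM115 are established lines grown from human skin melanomas, and both are known for an activating mutation of BRAF, the kinase that drives the ERK pathway in many melanomas. The other 31 libraries are from clones of the same lines in which a stretch of regulatory DNA near SOX10, region R1 or R4, was deleted. They comprise 14 libraries of 4 A375 clones and 17 libraries of 5 WM115 clones, and they enter here only as a second set of samples of each line. The labels name no treatment for the wild-type cells and do not say whether the 4 libraries of a line came from separate cultures, so each p-value measures only the spread between these libraries. RNA was selected by its poly(A) tail, and a level is in TPM, a length-corrected share of a library. Each line stands for 1 tumour, so a difference is one between these lines.

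Melanoma cells keep parts of the programme of the melanocyte and of its embryonic source, the neural crest. SOX10, a transcription factor of the neural crest, switches on MITF, and MITF in turn activates the genes of pigment synthesis. Melanomas with little MITF often show more of receptors such as AXL and EGFR and of matrix and cytoskeletal genes, a pattern called undifferentiated or mesenchymal-like. MITF is also known to raise PPARGC1A, a coactivator of mitochondrial genes, which ties pigment state to metabolism.

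Between 14611 and 15158 genes had at least 1 TPM in an A375 wild-type library and between 14878 and 15382 in a WM115 one. Across genes, libraries of the same line correlated at 0.927 to 0.983 in A375 and at 0.965 to 0.988 in WM115, and libraries of different lines at 0.83 to 0.88. Some libraries stood apart from the others of their line. A375 replicate 2 had the highest level of the hypoxia gene BNIP3 (536 TPM against 56.4 to 175) and the lowest of the proliferation marker MKI67 (23.2 against 43.7 to 113). A375 replicate 3 had the highest share of mitochondrially encoded transcripts, and WM115 replicate 3 the lowest pigment and sterol gene levels of its line, with values given beside those results. As a check of the labelled cell type, SOX10 was high in all 8 libraries, and the leukocyte gene PTPRC did not exceed 0.15 TPM. The 12 melanoma and melanocyte markers, SOX10 among them, summed to 1301.5 to 2167.2 TPM in A375 and 1692.6 to 3604.2 in WM115. All 12 were tested, with 1 called higher in A375 and 8 higher in WM115, beside 22.4% called of all genes tested. Some were nearly absent from a line: DCT did not exceed 0.166 TPM in A375, nor PRAME 0.414 in WM115. The B cell gene MS4A1 was listed at 0 throughout, and the endothelial gene CDH5 did not exceed 0.064. The 10 endothelial markers summed to 3.1 to 4.26 TPM in A375 and 3.31 to 7.38 in WM115. Of these markers, 5 stayed under 1 TPM in all 8 libraries, and 1 was tested and not called. The 10 keratinocyte markers summed to 69.8 to 121 TPM in A375 and 40.7 to 58.9 in WM115, most of it KRT10, while KRT5, KRT1 and DSG3 did not exceed 0.096. KRT14 was at 10.6, 0.911, 4.72 and 26.4 TPM in A375 and 0.055, 0.133, 0.586 and 0.132 in WM115. DSC3, another keratinocyte marker, was at 3.19, 3.4, 2.21 and 2.86 TPM in A375 and listed at 0 in all WM115 libraries. The part of these markers in other results was not tested.

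A gene was tested when it reached 1 TPM in at least 4 of the 8 libraries, and called where the lines differed by 1 or more on the log2(TPM + 1) scale with an adjusted p below 0.05. This scale understates the change of low genes. A gene under 1 TPM in every library of a line could be tested only through the other line, so the filter fixed its direction. Such genes enter the counts and medians of the lists. Among others, they are TFAP2B, MSX2, COL5A1 and COL6A3, low in WM115. Low in A375 are LOX, RNF43, SAA1, SAA2, PPARGC1A and COL1A2. Differences are A375 minus WM115, so negative values mean higher in WM115. Of 15422 genes tested, 3461 (22.4%) were called, 1449 (9.4%) higher in A375 and 2012 (13%) higher in WM115, and the median difference of all tested genes was -0.04. The libraries of the lines did not overlap for 6750 genes (43.8%). Without A375 replicate 2 and WM115 replicate 3 together, a choice made after seeing the data, 4168 genes were called. The strip plot of list members sets each group of genes described here against this background.

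**Figure D1:**
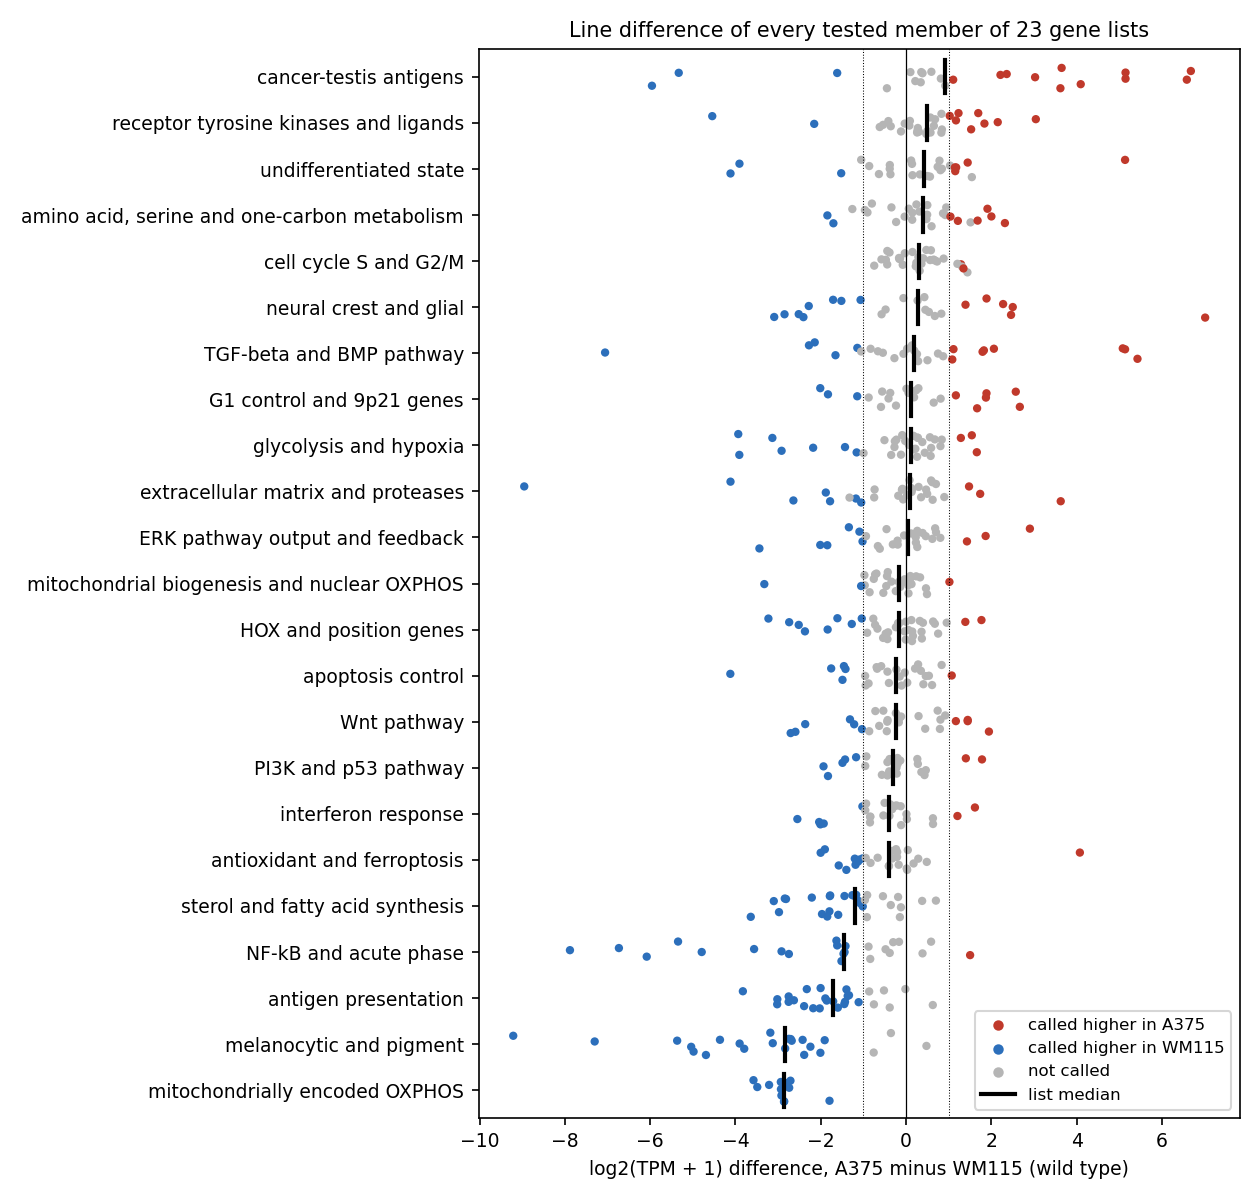
Line difference of every tested member of 23 gene lists in the wild-type libraries, on the log2(TPM + 1) scale, A375 minus WM115. Each point is a gene, red where it was called higher in A375, blue where it was called higher in WM115 and grey where it was not called, and the black bar is the list's median. The mitochondrially encoded list (median -2.87) and the melanocytic list (median -2.83) lie furthest to the left, and no list has a median above that of the cancer-testis antigens (0.92).

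Both lines expressed SOX10, but WM115 had far more of the pigment programme. The promoters of 4 pigment genes that were higher in WM115 are shown because they carry the motif TCATGTG, the core of the element bound by MITF, in capitals here wherever it or its reverse complement CACATGA occurs in the 250 bases before the RefSeq start site (GRCh38.p14, plus strand for all). TYR and TYRP1 encode enzymes of melanin synthesis, SLC24A5 an ion exchanger of the melanosome, and GPNMB a melanosome glycoprotein.
TYR, chr11:89177625-89177874: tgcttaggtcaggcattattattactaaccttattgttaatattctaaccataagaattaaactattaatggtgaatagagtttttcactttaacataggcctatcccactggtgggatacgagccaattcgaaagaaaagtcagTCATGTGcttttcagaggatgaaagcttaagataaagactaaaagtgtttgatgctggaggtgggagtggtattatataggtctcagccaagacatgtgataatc
TYRP1, chr9:12693135-12693384: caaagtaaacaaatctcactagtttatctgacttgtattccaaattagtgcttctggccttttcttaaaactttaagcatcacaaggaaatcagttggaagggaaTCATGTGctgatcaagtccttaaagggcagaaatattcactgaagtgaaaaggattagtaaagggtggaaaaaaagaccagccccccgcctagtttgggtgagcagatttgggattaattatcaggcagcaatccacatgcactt
SLC24A5, chr15:48120740-48120989: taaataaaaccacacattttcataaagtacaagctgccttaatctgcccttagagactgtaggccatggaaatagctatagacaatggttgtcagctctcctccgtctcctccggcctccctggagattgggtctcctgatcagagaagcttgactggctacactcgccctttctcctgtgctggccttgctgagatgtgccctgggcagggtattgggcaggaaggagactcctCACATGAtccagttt
GPNMB, chr7:23246525-23246774: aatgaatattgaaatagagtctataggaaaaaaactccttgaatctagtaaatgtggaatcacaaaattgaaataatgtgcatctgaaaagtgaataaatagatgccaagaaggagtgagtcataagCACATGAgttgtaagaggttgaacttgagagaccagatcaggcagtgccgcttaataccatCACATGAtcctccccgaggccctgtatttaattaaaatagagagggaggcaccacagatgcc
Over the window from 250 bases before to 50 after the start, TCATGTG on either strand was present in 5 of the 24 melanocytic list members with a promoter in the table (20.83%) and in 1026 of 35116 promoters of all genes (2.922%). Besides the 4 printed, GPR143 carried it, whose level did not exceed 0.353 TPM in any library. A match is a description of the letters in this window.

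MITF (ENSG00000187098, chromosome 3, 69739435 to 69968337, plus strand, GRCh38) was listed at 22.2, 21.5, 26.7 and 18.7 TPM in the A375 libraries and at 149, 139, 60.5 and 164 in the WM115 libraries. Every WM115 library lay above every A375 library, and WM115 replicate 3 was the lowest of its line. The difference was -2.39 ± 0.29 (SE, n = 4 and 4; adjusted p = 0.000114). SOX10 (ENSG00000100146, chromosome 22, 37970686 to 37987422, minus strand), which activates MITF, was at 702, 706, 691 and 629.8 TPM in A375 and at 553, 539.9, 485 and 449 in WM115. Its libraries did not overlap either, with A375 the higher, but the difference of 0.43 ± 0.13 (adjusted p = 0.0205) was below the size needed for a call. In these 8 libraries the line with more SOX10 RNA was the line with less MITF RNA. In bulk RNA, fewer cells with a transcript and less of it per cell cannot be told apart.

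Of the 30 melanocytic and pigment genes, 23 were tested, 20 were called higher in WM115 and none higher in A375. The list median was -2.83. DCT, CAPN3, IRF4 and TYR were under 1 TPM in every A375 library. They passed the filter through WM115 alone, so it fixed their direction, and they enter the count and the median. Leaving out any 1 library gave 20 to 21 called members. DCT (ENSG00000080166, chromosome 13, 94436808 to 94479682, minus strand), dopachrome tautomerase of the melanin pathway, was at 0.115, 0.166, 0.066 and 0.144 TPM in A375 and at 785, 681, 215 and 1685 in WM115. Its difference of -9.21 ± 0.49 (adjusted p = 4.74e-07) was the furthest toward WM115 among the protein-coding genes called with libraries that did not overlap. CAPN3, a calpain protease whose RNA tracks MITF in many melanomas, was at 0.345, 0.999, 0.429 and 0.477 TPM in A375 and at 369, 312, 60.5 and 489.8 in WM115, and for both genes WM115 replicate 3 was the lowest of its line. IRF4, a transcription factor that acts with MITF on the tyrosinase gene, was at 0.017, 0, 0.049 and 0.083 TPM in A375 and at 45.4, 56.3, 32.9 and 36 in WM115, a difference of -5.37 ± 0.18 (adjusted p = 2.46e-08). TYR was listed at 0 in all 4 A375 libraries and at 6.48, 4.11, 1.17 and 23.6 TPM in WM115, so even the higher line had a low level. TFAP2A, a neural crest factor that works with MITF, had a mean of 11.8 ± 2.15 TPM (SD, n = 4) in A375 and 84.4 ± 24.6 in WM115. The 3 tested members that were not called were PAX3 (-0.76, adjusted p = 0.0024), which acts with SOX10 on the MITF promoter, BCAN (-0.35) and the melanocortin receptor MC1R (0.48). KIT, the receptor of melanocyte precursors, was listed at 0 in all 8 libraries, and CDH1, the epithelial cadherin of melanocytes, did not exceed 0.093 TPM in any of them.

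MITF is transcribed from several start sites, and the melanocyte form starts furthest downstream. Transcript MITF-201, which starts at chromosome 3 position 69936587, made up 43.8% of the gene's TPM on average in A375 and 41.3% in WM115. MITF-205, which starts at position 69936592, was at 0, 0.448, 4.25 and 0 TPM in A375 and at 58.9, 48.6, 13.8 and 61.7 in WM115. Transcripts that start far upstream, at positions 69739435 and 69739482, held a larger part of a smaller total in A375. They are MITF-203 and MITF-216, which made up 19.9% and 26.3% of the gene's TPM there, against 7.45% and 10.9% in WM115. These shares are the authors' estimates from short reads over overlapping transcripts and were not tested.

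The neural crest and glial list was split between the lines: of 23 tested members of 30, 6 were called higher in A375 and 8 higher in WM115, with a median of 0.27. TFAP2B (ENSG00000008196, chromosome 6, 50818723 to 50847613, plus strand), the paralog of TFAP2A, was at 143, 188, 166 and 84.6 TPM in A375 and at 0.046, 0.179, 0.102 and 0.017 in WM115, a difference of 7.02 ± 0.23 (adjusted p = 2.07e-08). The lines thus carried opposite members of the AP-2 pair, TFAP2A higher in WM115 and TFAP2B higher in A375, with no overlap of libraries for either gene. SOX5, a SOX factor known to counter SOX10 at melanocyte genes, was at 201, 231, 156 and 125 TPM in A375 and 31.4, 35.9, 40.1 and 19.4 in WM115 (2.46 ± 0.25, adjusted p = 4.09e-05). MSX2 was listed at 0 in all WM115 libraries and at 5.18, 3.83, 3.96 and 6.0 TPM in A375.

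On the WM115 side stood NGFR, the nerve growth factor receptor that marks neural crest-like melanoma cells, at 15.4, 3.39, 4.24 and 30.6 TPM in A375 and 50.5, 102, 277 and 41.6 in WM115 (-3.09 ± 0.72, adjusted p = 0.00581). ZEB2 and SNAI2, transcription factors that accompany the melanocytic state, had differences of -2.85 ± 0.15 and -2.52 ± 0.29, and their counterparts ZEB1 and SNAI1 were called in the other direction (1.4 ± 0.24 and 2.28 ± 0.23). Each line thus had more of a different member of the ZEB and SNAI families. The glial gene S100B was also called higher in WM115 (-2.4), whereas CDH19 (-0.48) and FOXD3 (-0.06) had overlapping libraries.

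**Figure D2:**
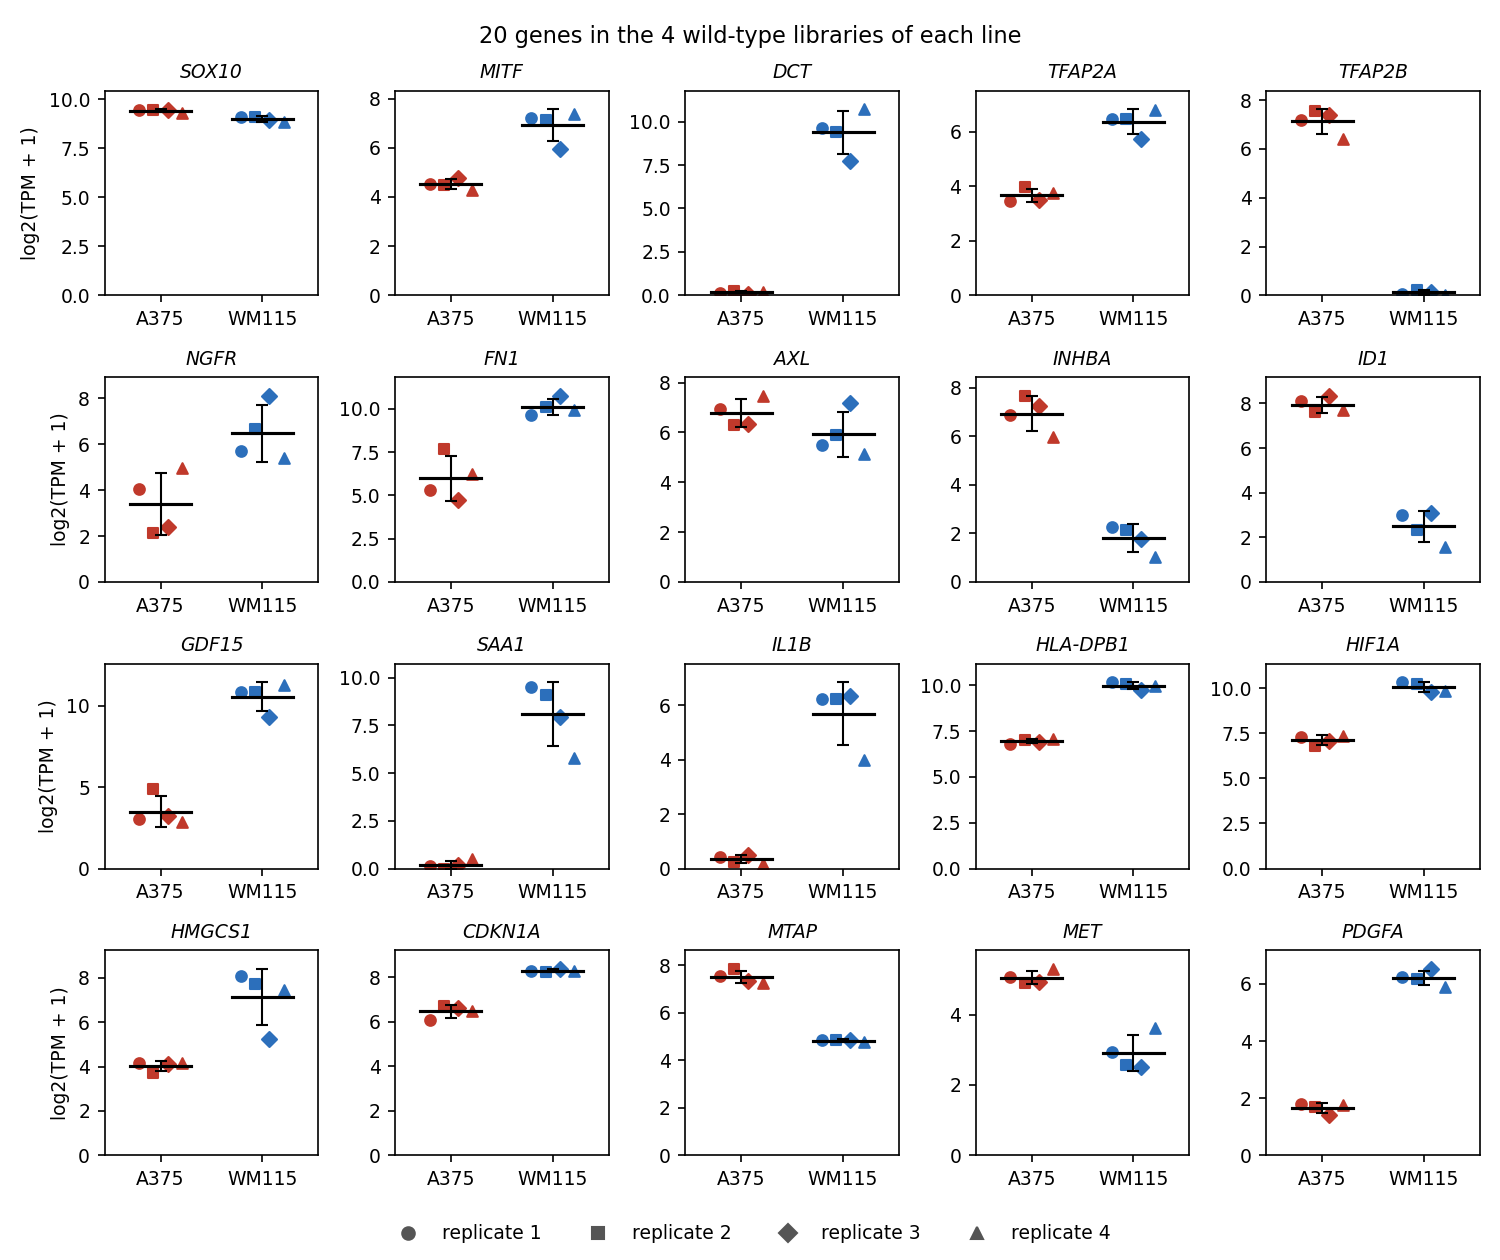
Levels of 20 genes in the 4 wild-type libraries of each line, as log2(TPM + 1) on the vertical axes, which start at 0 and have a scale of their own in each panel. Symbols mark the replicates, and black lines give the mean and SD of the 4 libraries. MITF, DCT, NGFR, SAA1 and HIF1A lie higher in WM115, TFAP2B, INHBA, ID1 and MTAP higher in A375, and the libraries of AXL overlap.

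The undifferentiated list did not move as a block. Of 26 tested members of 30, 5 were called higher in A375 and 3 higher in WM115, and the median was 0.41. The share called among all genes tested was 22.4%. AXL, a receptor kinase of that state, was at 123, 78.4, 79.8 and 177 TPM in A375 and 44.6, 58.5, 144 and 33.8 in WM115, and WM115 replicate 3 exceeded 3 of the A375 libraries. Its difference of 0.84 ± 0.42 (95% interval -0.10 to 1.79, adjusted p = 0.128) was not called, but without WM115 replicate 3 it was 1.26 with an adjusted p of 0.00997. EGFR was low in both lines, at 5.12, 5.02, 2.46 and 4.64 TPM in A375 and 3.08, 2.77, 2.59 and 2.24 in WM115 (0.50, 95% interval 0.04 to 0.96). The AP-1 member FOSL1, the matrix protein TNC and the hyaluronan receptor CD44 had overlapping libraries, with differences of 0.12, 0.14 and 0.15. CDH2, the neural cadherin, was higher in A375 in every library but short of a call (0.81 ± 0.24, adjusted p = 0.0176).

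The members that were called went both ways. FN1 (ENSG00000115414, chromosome 2, 215360440 to 215436172, minus strand), the matrix glycoprotein fibronectin, was at 38.7, 204, 25.4 and 75.8 TPM in A375 and 798, 1108, 1729.9 and 969 in WM115 (-4.12 ± 0.55, adjusted p = 0.000206). LOX, which crosslinks collagen, was at 0.15, 0.049, 0.081 and 0.134 TPM in A375 and 16.4, 15.3, 15.3 and 15.1 in WM115, and JUN differed by -1.52 ± 0.36. Higher in A375 were INHBA, WNT5A (1.45 ± 0.39), the urokinase receptor PLAUR (1.18 ± 0.22), VIM (1.16 ± 0.31) and the clotting initiator F3 (1.15 ± 0.29). Libraries of VIM and F3 overlapped. So the line with the higher pigment programme also had the higher fibronectin and NGFR.

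Ligands, inhibitors and targets of the TGF-beta and BMP pathway held some of the widest gaps between the lines. TGF-beta and activin ligands signal through SMAD2 and SMAD3, and BMP ligands through SMAD1, SMAD5 and SMAD9, whose best known targets are the ID genes. Of 27 tested members of 35, 8 were called higher in A375 and 5 higher in WM115, with a median of 0.19. Among the ligands, INHBA, the activin A subunit, was at 117, 203, 151 and 61.3 TPM in A375 and 3.87, 3.48, 2.38 and 1.01 in WM115 (5.14 ± 0.38, adjusted p = 4.54e-06). GDF15 (ENSG00000130513, chromosome 19, 18374731 to 18389176, plus strand), a stress-induced cytokine of the same superfamily, was at 7.14, 28.9, 8.35 and 6.3 TPM in A375 and 1805, 1850.0, 628 and 2476 in WM115. Its difference of -7.06 ± 0.51 (adjusted p = 4.04e-06) ran opposite to that of INHBA. BMP2 and TGFB1 were called higher in A375 (2.06 ± 0.24 and 1.83 ± 0.17), and BMP7 and TGFB2 higher in WM115 (-2.14 ± 0.31 and -1.65 ± 0.27).

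Of the targets, ID1 was at 271, 192, 323 and 205 TPM in A375 and 6.94, 4.06, 7.48 and 1.99 in WM115 (5.43 ± 0.32, adjusted p = 9.94e-07). ID3 followed the same order, at 215, 164, 231 and 156 TPM in A375 and 6.97, 4.03, 4.25 and 3.65 in WM115 (5.08 ± 0.20). ID4 ran the other way (-2.27 ± 0.21) and ID2 had overlapping libraries (0.28). ID proteins bind and block basic helix-loop-helix factors. The receptors differed less: BMPR1A was called higher in A375 (1.09), the co-receptor TGFBR3 higher in WM115 (-1.14), and TGFBR1 (-0.83) and TGFBR2 (-0.66) were not called. TGFBI, a matrix protein named for its induction by TGF-beta, was not called (-1.05 ± 0.41, adjusted p = 0.0575), but was without A375 replicate 2 (-1.41, adjusted p = 0.00618).

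In the Wnt pathway, 4 of 27 tested members of 37 were called higher in A375 and 6 higher in WM115, a share of the list above the 22.4% of all genes, with a median of -0.24. The DNA-binding partners of beta-catenin were split. TCF7L2 was at 82.5, 80.1, 98.1 and 65.9 TPM in A375 and 21.5, 23, 29.6 and 11.3 in WM115 (1.95 ± 0.26), LEF1 differed by 1.45 ± 0.17, and TCF7 by -1.31 ± 0.20. RNF43 and AXIN2, feedback inhibitors that are themselves Wnt targets, were both called higher in WM115 (-2.59 ± 0.15 and -1.03 ± 0.18), as were the target NKD1 (-1.22), the receptor FZD4 (-2.7 ± 0.22) and the secreted protein DKK3 (-2.36 ± 0.34). CTNNB1, beta-catenin itself, was not called (-0.44 ± 0.20). WNT5A, a ligand of the branch that works without beta-catenin, was at 44.3, 27.6, 40 and 44.3 TPM in A375 and 18.7, 18.1, 19.2 and 4.74 in WM115, where replicate 4 was far below the others.

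Of 31 tested receptor tyrosine kinases and ligands of 40, 8 were called higher in A375 and 2 higher in WM115 in wild type, with a median of 0.50. Over clones 4 were called higher in A375 and 3 higher in WM115 (median 0.30). The shares called among all genes tested were 22.4% in wild type and 17.5% over clones. MET, the receptor of hepatocyte growth factor, was at 32.7, 29.1, 29.5 and 38.2 TPM in A375 and 6.58, 4.87, 4.67 and 11.3 in WM115 (2.15 ± 0.24, adjusted p = 7.21e-05). EPHB2, an ephrin receptor, was at 14.6, 13.3, 13.2 and 19.3 TPM in A375 and 0.558, 1.32, 1.53 and 0.515 in WM115 (3.04 ± 0.22). IGF1R, FGFR4, FLT1, EPHA4 and PDGFRB were also called higher in A375, with differences from 1.03 for PDGFRB to 1.84 for FGFR4. In wild type no tested receptor was called higher in WM115. Both calls toward WM115 were ligands: PDGFA was at 2.45, 2.26, 1.66 and 2.39 TPM in A375 and 74.8, 71.5, 90.7 and 58.4 in WM115 (-4.54 ± 0.17, adjusted p = 4.18e-08), and KITLG, the ligand of KIT, differed by -2.15 ± 0.20. The EGFR ligand TGFA was called in the other direction (1.7 ± 0.26). ERBB3, a SOX10 target and the most abundant receptor of the list, was not called (0.83 ± 0.22).

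Genes that report the output of the ERK pathway differed one by one, not together. All 30 were tested, 3 were called higher in A375 and 6 higher in WM115, and the median was 0.04. Among all genes, 22.4% were called. DUSP6, the phosphatase that dampens ERK and tracks its activity, was at 191, 141, 171 and 187 TPM in A375 and 184, 151, 214 and 164 in WM115. The libraries overlapped, and the difference was -0.04 (95% interval -0.39 to 0.30, adjusted p = 0.833). SPRY4 (0.23), ETV5 (0.27) and PHLDA1 (0.39), further targets, overlapped too. CCND1, cyclin D1, was at 284, 167, 186 and 396 TPM in A375 and 822, 952, 1274 and 937 in WM115 (-2.01 ± 0.27, adjusted p = 0.000226). The transcription factor MAFF was at 15.5, 17.2, 18 and 16.6 TPM in A375 and 238, 217, 105 and 249 in WM115 (-3.44 ± 0.25), and the cytokine LIF differed by -1.84 ± 0.30. IL11, a cytokine of the same family as LIF, was at 8.63, 11.5, 16.5 and 10.5 TPM in A375 and 0.377, 0.781, 1.48 and 0.265 in WM115 (2.91 ± 0.26), so these related cytokines ran in opposite directions. SPRED3 was also called higher in A375 (1.87), and EGR1 as well (1.43 ± 0.42), but its libraries overlapped and its call was lost without A375 replicate 3 (adjusted p = 0.0576) or WM115 replicate 2 (adjusted p = 0.0544).

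Within the PI3K and p53 list, 2 of 24 members were called higher in A375 and 5 higher in WM115 (median -0.30). The share called was not far above the 22.4% of all genes. The kinase subunits PIK3CA (0.27) and PIK3CB (-0.22) and the AKT genes were not called. Among p53 targets, the cell-cycle inhibitor CDKN1A was at 66.6, 104, 96.1 and 87.5 TPM in A375 and 314, 297, 329.5 and 311 in WM115 (-1.83 ± 0.15). CDKN1A lies on chromosome 6, where 29.55% of the genes tested were called higher in WM115. ZMAT3 (-1.93 ± 0.23), the proapoptotic BBC3 (-1.49 ± 0.30), MDM2 (-1.43) and SESN1 (-1.17) were called higher in WM115 as well. TP53I3 was called in the other direction (1.4 ± 0.13), and BAX (-0.43) had overlapping libraries.

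Of the genes listed from the short arm of chromosome 9, where CDKN2A is often deleted in melanoma, 5 were tested and called lower in WM115. CDKN2A and DMRTA1 passed the filter on low values through A375 alone, so their direction was fixed by it. MTAP (ENSG00000099810, chromosome 9, 21802543 to 21937651, plus strand), a methionine salvage enzyme, was at 186, 229, 163 and 153 TPM in A375 and 27.9, 27.7, 28.4 and 26.4 in WM115 (2.67 ± 0.14, adjusted p = 5.49e-07). CDKN2A, which encodes the cell-cycle inhibitor p16 and the p53 activator ARF, was at 5.2, 34.8, 6.93 and 4.22 TPM in A375 and 0.631, 0.55, 0.82 and 0.583 in WM115 (2.58 ± 0.51, adjusted p = 0.00246). DMRTA1 was listed at 0 in all WM115 libraries and at 2.64, 2.4, 3.9 and 2.1 TPM in A375, FOCAD differed by 1.67 ± 0.19 and KLHL9 by 1.17 ± 0.13. CDKN2B, which lies beside CDKN2A, was listed at 0 in all 8 libraries. HACD4, also on this arm, was left out by the same filter and reached 1.58 TPM in WM115 and 0.072 in A375. In the list of G1 control and 9p21 genes, 22 of 25 members were tested, 6 were called higher in A375, namely the 5 above and CDKN1C (1.88), and 3 higher in WM115, namely CCND1, CDKN1A and CDK2 (-1.14 ± 0.28), with a median of 0.12. Without A375 replicate 2, the CDK2 difference was -0.86 and not called. CDK4 was not called (0.65 ± 0.18).

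WM115 had more RNA of secreted inflammatory proteins. NF-kB is the transcription factor behind many acute-phase and cytokine genes. Of 23 tested members of the 30 NF-kB and acute-phase genes, 14 were called higher in WM115 and 1 higher in A375, with a median of -1.47. SAA1, SAA2 and IL1B passed the filter through WM115 alone, so it fixed their direction. SAA1 (ENSG00000173432, chromosome 11, 18266174 to 18269977, plus strand), serum amyloid A, was at 0.101, 0, 0.121 and 0.414 TPM in A375 and 737, 539, 246 and 53.6 in WM115 (-7.88 ± 0.67, adjusted p = 1.21e-05). Its near-identical neighbour SAA2 was listed at 0 in A375 and at 202, 137, 58.6 and 11.5 in WM115, and reads of this pair may have been split between them. The siderophore binder LCN2 was at 0.672, 0.26, 3.2 and 0.235 TPM in A375 and 404, 361, 237 and 39.1 in WM115 (-6.73 ± 0.70), and the cytokine IL1B at 0.356, 0.186, 0.411 and 0.134 in A375 and 73.3, 73.6, 79.6 and 14.7 in WM115 (-5.34 ± 0.47). IL24, SOD2, CCL2 and C3 were called the same way, with differences of -4.79, -2.92, -3.56 and -2.75. The chemokine CXCL3 was the exception (1.5 ± 0.32), and the inhibitor NFKBIA (-0.48), RELB (-0.38) and NFKB2 (0.59 ± 0.27) had overlapping libraries. CASP1 and PYCARD, which form the inflammasome that processes IL1B, were at 0.177 and 0.036 TPM on average in A375 and at 20.1 and 139.5 in WM115, with differences of -4.12 ± 0.23 and -6.88 ± 0.36. Both were under 1 TPM in every A375 library, so the filter fixed their direction as well.

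Interferon response genes were split. Of 25 tested members of 30, 2 were called higher in A375 and 5 higher in WM115 (median -0.39), a share close to the background of 22.4%. OAS2, IFI6 and IFIT2 were called higher in WM115 (-2.55 ± 0.16, -2.04 ± 0.21 and -2.01 ± 0.17). IFI44 was called higher in A375 (1.21 ± 0.19), and so was GBP2 (1.62 ± 0.49), whose libraries overlapped and whose call was lost without A375 replicate 3 (adjusted p = 0.0567) or WM115 replicate 3 (adjusted p = 0.0541). ISG15 (-0.25), IRF1 (-0.22) and the abundant IFITM3 (-0.12) did not separate the lines.

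Antigen presentation genes were higher in WM115 with few exceptions: of 27 tested members of 30, 21 were called higher in WM115 and none higher in A375 (median -1.71). Class II genes, which most cells outside the immune system do not express, were abundant in both lines. HLA-DPB1 was at 112, 129, 119.9 and 131 TPM in A375 and 1137, 1054, 845 and 988 in WM115 (-3.02 ± 0.14, adjusted p = 1.52e-07), and HLA-DQA1 and HLA-DQB1 differed by -3.83 ± 0.18 and -3.02 ± 0.12. CIITA, the coactivator that class II genes depend on, was called the same way (-1.45 ± 0.32), whereas NLRC5, its class I counterpart, was not called (-0.86 ± 0.20). HLA genes are polymorphic and similar to each other, so a library's reads can be assigned unequally between alleles and paralogs. Of the 12 immune markers 2 were tested. The macrophage and melanoma gene CD68 was called higher in WM115 (-3.39 ± 0.47), and LYZ, the lysozyme gene, higher in A375 (2.17 ± 0.34). ITGAM, an integrin of myeloid cells, was not tested and stood at 0.008, 0.01, 0 and 0.095 TPM in A375 and 3.43, 1.74, 0.189 and 11 in WM115. The 12 immune markers summed to 27.8 to 124 TPM in A375 and 337 to 449 in WM115, nearly all of it CD68, while PTPRC, CD3D and MS4A1 did not exceed 0.15 TPM. CD276, an inhibitory ligand, was higher in A375 in every library but not called (0.63 ± 0.14).

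Most of these genes lie on chromosome 6, whose genes as a whole were lower in A375. Of 775 genes tested on chromosome 6, 29.55% were called higher in WM115 and 2.581% higher in A375, with a median of -0.61 against -0.04 over all genes. The 756 genes of chromosome 6 outside the list had a median of -0.59, and the 19 tested list members there had a median of -2.02, 18 of them called. The 8 tested members on other chromosomes had a median of -0.81, 3 of them called (B2M, CD74 and CIITA). Chromosomes 14 and 22 were also shifted toward WM115, with medians of -0.461 and -0.43. On them 19.21% and 21.91% of the genes tested were called higher in WM115, and 3.366% and 3.933% higher in A375. HIF1A lies on chromosome 14. MAFF and LIF, called higher in WM115, lie on chromosome 22, as do SOX10 and PRAME, which were higher in A375. Chromosome 4 was shifted the other way, with a median of 0.51 and 21.77% of its genes called higher in A375. The part of such chromosome-wide shifts in the difference of any 1 gene was not tested.

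**Figure D3:**
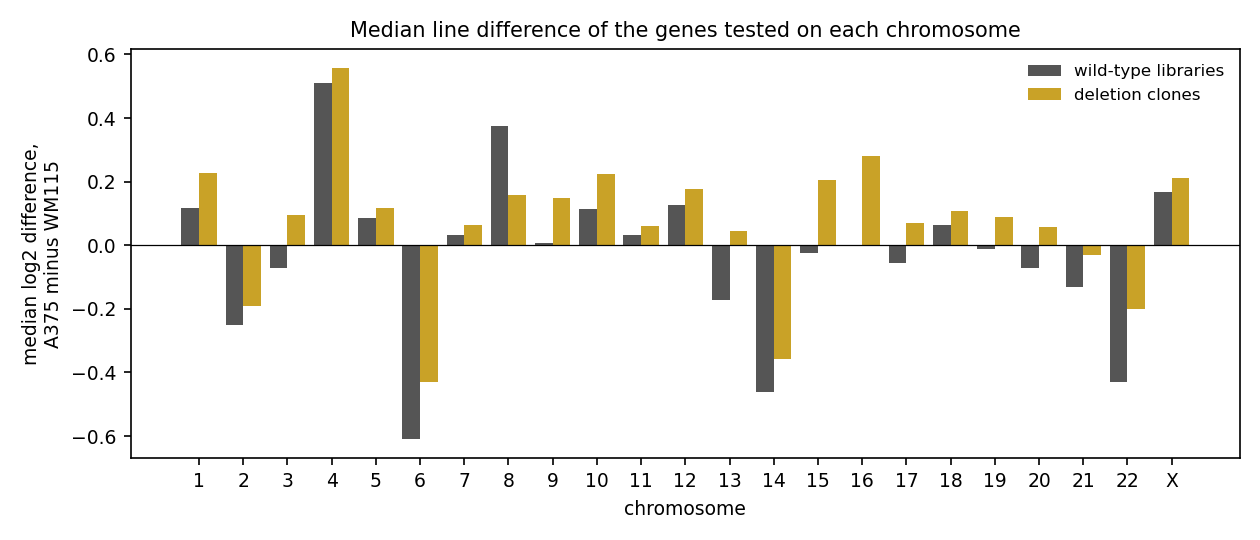
Median log2 difference, A375 minus WM115, of the genes tested on each chromosome, in the wild-type libraries (grey bars) and over the means of the deletion clones (yellow bars). Chromosome 6 has the lowest median in wild type (-0.61) and chromosome 4 the highest (0.51), and the clones give -0.43 and 0.56.

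The widest metabolic gap was in transcripts of the mitochondrial genome itself. The 37 mitochondrially encoded genes took 1.66%, 1.60%, 4.92% and 1.21% of the TPM in the A375 libraries and 14.6%, 15.6%, 13.7% and 15.1% in the WM115 libraries. A375 replicate 3 was the highest of its line and still under every WM115 library. The means were 2.35% ± 1.73 (SD, n = 4) and 14.8% ± 0.81, a difference of -12.4 percentage points that ran from -13.3 to -12.0 when each library was left out in turn. An exact two-sided permutation test gave p = 0.0286, the smallest value that the 70 arrangements of 4 and 4 libraries allow. All 13 protein-coding members were called higher in WM115, with a median of -2.87. MT-CO2, a cytochrome oxidase subunit, was at 1547, 2079, 4855 and 875 TPM in A375 and 23022, 25092, 19298 and 24875 in WM115 (-3.58 ± 0.44, adjusted p = 0.000122), and MT-ND3 had the narrowest gap (-1.79 ± 0.29). Because TPM is a share, such a gap by itself lowers every other gene's TPM in WM115 by the same factor. The effect of the mitochondrial share alone was not measured: the rescaling that was run removed ribosomal protein genes as well, whose share differs in the other direction.

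Nuclear genes of the respiratory chain did not follow. Of 29 tested members of the 30 genes of mitochondrial biogenesis and nuclear oxidative phosphorylation, 1 was called higher in A375 and 2 higher in WM115 (median -0.17), a share below the 22.4% of all genes. PPARGC1A, the coactivator that MITF is known to raise, was at 0.135, 0.262, 0.02 and 0.036 TPM in A375 and 15.5, 15.8, 2.04 and 16.9 in WM115 (-3.32 ± 0.51, adjusted p = 0.000478). WM115 replicate 3 was the lowest of its line for this gene and for the pigment genes. ATP5F1B, a catalytic subunit of ATP synthase, was not called (-0.43 ± 0.19), nor was the mitochondrial transcription factor TFAM (0.47). CYCS (-1.05 ± 0.37) and TFB2M (1.02 ± 0.24) were called near the threshold. CYCS lost the call without any 1 of A375 replicates 1, 2 and 3 and WM115 replicates 1, 2 and 4, the smallest difference being -0.64 without A375 replicate 2. TFB2M lost it without A375 replicate 3 or 4 or WM115 replicate 1 or 3, with 0.85 at the lowest without A375 replicate 3. The share of the 78 cytosolic ribosomal protein genes ran opposite to the mitochondrial share, with 19.4%, 25.5%, 21% and 17.4% in A375 and 11.9%, 11.1%, 12.1% and 12.8% in WM115 (exact permutation p = 0.0286, again the smallest possible, and 0.0286 after adjustment over the 2 shares). Both shares overlapped between the lines in the clone libraries. There the ribosomal protein share was 16.58% to 25.98% in A375 and 10.63% to 17.37% in WM115. After the lowest of these WM115 libraries, replicate 3 of clone 1.3, the next was at 15.03%. The mitochondrial share of the clone libraries was 0.9684% to 4.917% in A375 and 4.706% to 19.41% in WM115.

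**Figure D4:**
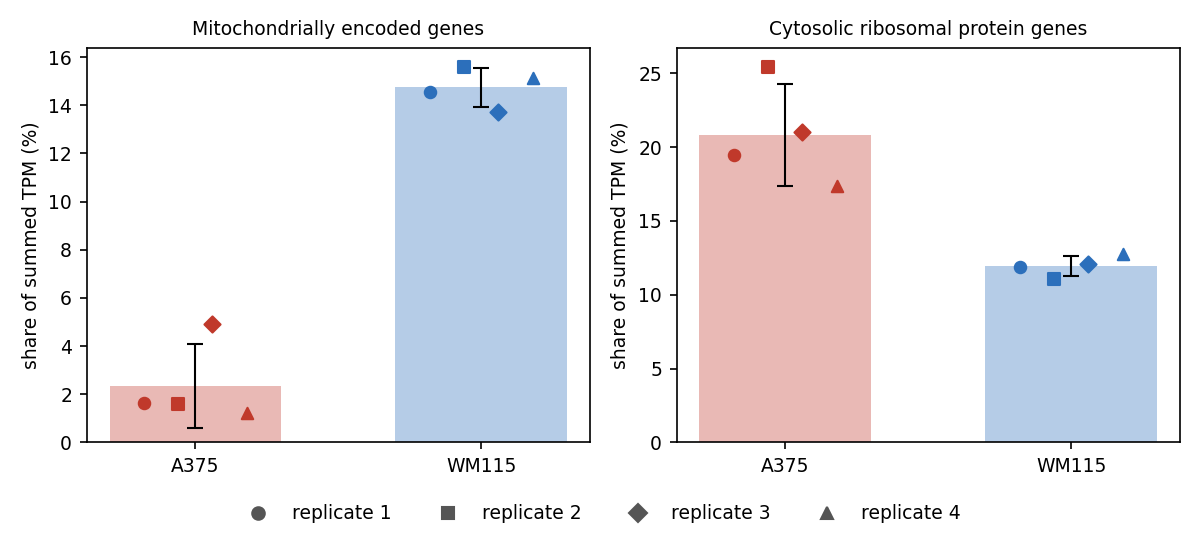
Share of summed TPM, in percent, of the 37 mitochondrially encoded genes (left) and of 78 cytosolic ribosomal protein genes (right) in each wild-type library. Bars and error lines are the mean and SD of 4 libraries, and symbols are the replicates. The mitochondrial share runs from 1.21% to 4.92% over the A375 libraries and from 13.7% to 15.6% over the WM115 libraries, and the ribosomal protein share is higher in every A375 library.

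WM115 had more RNA of the hypoxia-inducible factors, while few glycolytic enzymes were called. Of 34 tested members of 35, 3 were called higher in A375 and 7 higher in WM115 (median 0.12), beside 22.4% called of all genes. HIF1A (ENSG00000100644, chromosome 14, 61695513 to 61748259, plus strand), the oxygen-regulated transcription factor, was at 158, 109.6, 131 and 161 TPM in A375 and 1269, 1205, 869 and 917 in WM115 (-2.92 ± 0.18, adjusted p = 1.51e-06). Its relative EPAS1 was at 3.45, 7.74, 0.636 and 0.74 TPM in A375 and 61.6, 50, 25.8 and 69.4 in WM115 (-3.93 ± 0.53). Both genes were higher in WM115 without overlap, as were the lactate exporter SLC16A3 (-3.13 ± 0.25) and the carbonic anhydrase CA12 (-3.91 ± 0.25). CA12 was under 1 TPM in every A375 library, so the filter fixed its direction. CA9, a sensitive hypoxia target, was at 82.4, 482, 4.04 and 1.88 TPM in A375 and 26.7, 35.6, 38.3 and 26.3 in WM115, so the A375 libraries enclosed the range of the others. BNIP3 was at 175, 536, 70.2 and 56.4 TPM in A375 and 25.1, 48.3, 52 and 55.5 in WM115, and its call higher in A375 (1.66 ± 0.62, adjusted p = 0.0485) was lost without A375 replicate 1 or 2 or any 1 WM115 library, with a difference of 1.01 without A375 replicate 2. Among the enzymes, GAPDH was called higher in A375 (1.29 ± 0.29), but ENO1 (0.28), PKM (0.27), ALDOA (-0.09) and LDHA (0.68) were not called. PKM-202, the main transcript of pyruvate kinase here, made up 84.5% of the gene's TPM in A375 and 83.2% in WM115.

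Cholesterol and fatty acid synthesis was higher in WM115 over much of the pathway. Of 29 tested members of 30, 19 were called higher in WM115 and none higher in A375 (median -1.20). SREBF2, the transcription factor that controls sterol synthesis, differed by -1.79 ± 0.28. HMGCS1, an early enzyme of the mevalonate pathway, was at 16.9, 12, 16.2 and 16.8 TPM in A375 and 270.1, 208, 37.5 and 176 in WM115 (-3.1 ± 0.51, adjusted p = 0.000804), with WM115 replicate 3 far below the others of its line. Leaving out 1 library at a time gave 17 to 21 called members. FASN, fatty acid synthase, had a smaller difference that was called (-1.2 ± 0.25). FADS2, a fatty acid desaturase, was at 24.1, 19.6, 22.3 and 24.3 TPM in A375 and 328, 361, 242 and 254 in WM115 (-3.64 ± 0.16). FDFT1 (-0.92) fell short of a call, and ELOVL6 lay on the A375 side (0.70, not called).

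Among genes of amino acid supply, 28 of 30 members were tested, and 6 were called higher in A375 and 2 higher in WM115 (median 0.40). The share called was not far above the 22.4% of all genes. NNMT, which consumes methyl groups, was at 91.6, 70.3, 115 and 94.1 TPM in A375 and 27.4, 25.4, 12.2 and 10.8 in WM115 (2.32 ± 0.30). ASNS, asparagine synthetase, was at 76.2, 32.7, 30.6 and 82.1 TPM in A375 and 8.02, 9.29, 21 and 15.8 in WM115 (1.91 ± 0.39), and the folate enzyme ALDH1L2 differed by 2.0 ± 0.34. MTHFD2, BCAT1 and the cystine transporter SLC7A11 were called the same way (1.22, 1.68 and 1.04), and ATF4, which activates several of these genes, was not called (0.87 ± 0.29). GLUL, glutamine synthetase, ran the other way (-1.84 ± 0.23), as did the stress factor ATF3 (-1.7 ± 0.29). The serine pathway enzymes PHGDH (0.24) and PSAT1 (0.15) had overlapping libraries. SLC7A5, a leucine transporter, was at 242, 142, 106 and 649.6 TPM in A375, where replicate 4 exceeded every WM115 library, and was not called (-1.26 ± 0.47). Without that replicate its difference was -1.77 (adjusted p = 0.000906).

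Among antioxidant and iron genes, 9 of 27 tested members of 30 were called higher in WM115 and 1 higher in A375 (median -0.40). TKT (-1.58 ± 0.24) and TALDO1 (-1.02), enzymes of the pentose phosphate pathway, were called together with TXNRD1 (-1.4) and NQO1 (-1.09). The iron importer TFRC (-2.0 ± 0.62) and the ferritin light chain FTL (-1.2) were called as well. The TFRC libraries overlapped, and its call was lost without WM115 replicate 1, 2 or 4 (adjusted p of 0.054 to 0.0609). AKR1C2, an aldo-keto reductase, was at 48.2, 56.1, 46 and 22.7 TPM in A375 and 2.19, 1.06, 1.19 and 1.68 in WM115 (4.08 ± 0.28, adjusted p = 2.41e-06). Its close relatives AKR1C1 (0.49) and AKR1C3 (-0.21) had overlapping libraries, and reads of this family may be assigned unequally.

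In the extracellular matrix list, 3 of 31 tested members of 35 were called higher in A375 and 7 higher in WM115 (median 0.08). The share of all genes called was 22.4%. COL1A2 (ENSG00000164692, chromosome 7, 94394561 to 94431232, plus strand), the alpha 2 chain of type I collagen, was at 0.086, 0.059, 0 and 0.22 TPM in A375 and 657, 599.6, 454 and 467 in WM115 (-8.95 ± 0.16, adjusted p = 1.22e-09). COL1A1, which encodes the partner chain that makes up most of the type I trimer, stayed at 0.748, 3.32, 0.473 and 0.678 TPM in A375 and 0.271, 1.0, 0.146 and 0.253 in WM115. High COL1A2 in WM115 thus came without COL1A1, and with COL3A1 under 1 TPM in every library. Of the 10 fibroblast markers 6 were tested. FAP (-4.85 ± 0.29), FBLN1 (-2.03) and LUM (-2.03) were called higher in WM115. PDGFRB (1.03) and TWIST2 were called higher in A375, TWIST2 being at 4.77, 2.08, 2.75 and 5.31 TPM there and listed at 0 in all WM115 libraries. The filter thus fixed the direction of TWIST2. The 10 fibroblast markers summed to 15.5 to 29.8 TPM in A375 and 60.4 to 118 in WM115, while COL3A1, DCN and PDPN did not exceed 1.52 TPM in any library.

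Other matrix genes separated the lines the other way. COL5A1 was at 9.05, 21.8, 6.45 and 13 TPM in A375 and 0.01, 0.005, 0 and 0 in WM115 (3.63 ± 0.30), and COL6A3 at 2.3, 1.28, 2.12 and 4.43 in A375 and 0.005, 0.007, 0.011 and 0 in WM115. The integrin subunit ITGA1 was called higher in A375 (1.48 ± 0.26), and the protease inhibitors TIMP2 (-2.64 ± 0.20) and TIMP3 (-1.88) higher in WM115. SPARC (-0.07 ± 0.18), COL4A1 (0.12) and TNC, all abundant in both lines, had overlapping libraries.

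Apoptosis genes lay near the background, with 1 of 27 tested members of 30 called higher in A375 and 5 higher in WM115 (median -0.22). Besides CASP1, whose direction the filter fixed, and BBC3, the caspase-8 inhibitor CFLAR was called higher in WM115 (-1.75 ± 0.17). BCL2L2 (-1.46) and BIRC3 (-1.42) made up the rest, and BIRC2 was called higher in A375 close to the threshold (1.07 ± 0.17, and 0.96 without A375 replicate 4). MCL1 (0.41 ± 0.19), BCL2L1 (-0.22) and the MITF target BCL2A1 (-0.95) were not called. Proliferation genes overlapped between the lines for all 30 members, of which 2 were called higher in A375 (median 0.31), MCM2 (1.29 ± 0.40) and CENPF (1.35 ± 0.40). Among all genes tested, 43.8% had libraries that did not overlap and 22.4% were called. The MCM2 call was lost without A375 replicate 1 or 4 or WM115 replicate 1, 2 or 4 (adjusted p up to 0.0695), and the CENPF call without A375 replicate 1 or 3 or WM115 replicate 1 or 4 (adjusted p up to 0.0572). MKI67 was at 62.7, 23.2, 43.7 and 113 TPM in A375 and 31.8, 36, 57.6 and 28.3 in WM115. A375 replicate 2 was the lowest of its line and WM115 replicate 3 the highest of its own, and without these 2 libraries 13 of the 30 genes were called, against 11 without A375 replicate 2 alone.

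Cancer-testis antigens are genes of the germ line that tumours can switch on, and most of those called were higher in A375. Of 23 tested members of 30, 11 were called higher in A375 and 3 higher in WM115 (median 0.92). PRAME and XAGE1B passed the filter on low values through A375 alone, and SSX1 and MAGEC1 through WM115 alone. Any tested member listed at 0 in all libraries of a line passed in the same way. The filter fixed the direction of these genes, which enter the count and the median. PRAME (ENSG00000185686, chromosome 22, 22547701 to 22559361, minus strand) was at 126, 120.3, 156 and 105 TPM in A375 and 0.396, 0.149, 0.024 and 0.414 in WM115 (6.68 ± 0.17, adjusted p = 5.31e-09). CTAG1B, which encodes NY-ESO-1, was at 108, 148, 125 and 95.8 TPM in A375 and 1.01, 2.63, 1.68 and 5.36 in WM115 (5.15 ± 0.32), and MAGEA4 differed by 3.65 ± 0.21. SSX1 and MAGEC1 were at 0.377 and 0.105 TPM on average in A375 and at 85.7 and 43.4 in WM115, so each line had antigens that the other nearly lacked. GAGE1, GAGE12C, GAGE2A, MAGEA1, CTAG2 and CT83 were listed at 0 in all WM115 libraries. MAGEA3 (0.22), MAGEA6 (0.35) and MAGEC2 (0.39) had overlapping libraries. XAGE1A and XAGE1B are near-identical copies on the X chromosome, both under 1 TPM in every WM115 library. Their differences were 8.93 ± 0.17 and 6.59 ± 0.20, and the filter fixed the direction of both. Values within the XAGE, GAGE, SSX, PAGE and MAGE families depend on how reads were divided between copies.

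HOX and other position genes, which record where in the body a cell arose, had 38 tested members of 44. Of these 10 were called, a share near the 22.4% of all genes tested, 2 higher in A375 and 8 higher in WM115 (median -0.17). Of those 8, 5 belong to the HOXD cluster. HOXD3 and HOXD4 were under 1 TPM in every A375 library and passed the filter through WM115 alone, so it fixed their direction. HOXD11 was at 0.811, 1.1, 0.214 and 0.281 TPM in A375 and 14.9, 15, 11.7 and 13 in WM115 (-3.23 ± 0.20, adjusted p = 1.63e-06), and HOXD4, HOXD3, HOXD10 and HOXD8 differed by -2.74, -2.52, -2.37 and -1.04. Within the same cluster the HOXD9 libraries overlapped (95% interval of the difference -0.31 to 0.31). EN1 (1.77 ± 0.16) and HOXA5 (1.39 ± 0.19) were called higher in A375, and no HOXB gene was called.

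The deletion clones gave a second view of the same lines, with the clone as the unit (4 of A375 and 5 of WM115, each the mean of its libraries). All of them carry a deletion near SOX10, and the region deleted in WM115 clone 1.3 is given in conflicting ways, so they are samples of each line under another condition. Over clones 2701 of 15473 genes (17.5%) were called, 1251 (8.09%) higher in A375 and 1450 (9.37%) higher in WM115. Of the 3461 genes called in wild type, 3260 were tested over clones, 3225 had the same sign and 2101 (64.45%) were called the same way. The median size of the difference among genes called in both was 1.78 in wild type and 1.62 over clones. In all 39 libraries together, every library of one line lay above every library of the other for 1531 genes (9.93%), 1206 of them among the called.

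The differences of COL1A2, MTAP, MET, INHBA and HIF1A over clones lay within 1 of their wild-type values on the log2 scale. COL1A2 differed by -9.14 over clones (adjusted p = 1.51e-10), MTAP by 2.77, MET by 2.58, INHBA by 4.54 and HIF1A by -2.48. GDF15 differed by -5.45 over clones and by -7.06 in wild type. All 13 mitochondrially encoded genes were called higher in WM115 again (median -2.09), as were 17 antigen presentation genes, with 2 higher in A375. The pigment genes had smaller differences: 15 of 20 tested members were called higher in WM115, with a median of -1.89, DCT differed by -4.48 (adjusted p = 0.00306), and MITF by -1.27 without a call (adjusted p = 0.091). In sterol synthesis 12 genes were called higher in WM115 and 2 higher in A375, and HMGCS1 differed by -1.21. ID1 and ID3 differed by 2.88 and 1.95, and WNT5A by -0.06 (adjusted p = 0.936). Whether wild type and clones differ in these gaps was not tested. SOX10 differed by 0.85 (adjusted p = 0.13), short of a call as in wild type.

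A pair of genes was called in opposite directions in wild type and over clones, SOX8 and CEROX1, both named after their values were seen. Both were under 1 TPM in every WM115 wild-type library. They passed the wild-type filter through A375 alone, so it fixed their wild-type direction. SOX8, a close relative of SOX10, was at 3.16, 4.44, 3.11 and 1.9 TPM in A375 wild type and 0.142, 0.049, 0.15 and 0.041 in WM115 wild type (1.89 ± 0.20), and differed by -2.08 over clones (adjusted p = 0.00723). CEROX1, a noncoding RNA, differed by 2.14 ± 0.33 in wild type and by -1.49 over clones (adjusted p = 0.0296). Its clone call was lost without A375 clone 1.1, 1.2 or 4.2 or WM115 clone 1.3, 4.1 or 4.2 (adjusted p of 0.05455 to 0.08079). They are neighbours on chromosome 16, SOX8 at 981808 to 986979 and CEROX1 at 975761 to 981596.

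**Figure D5:**
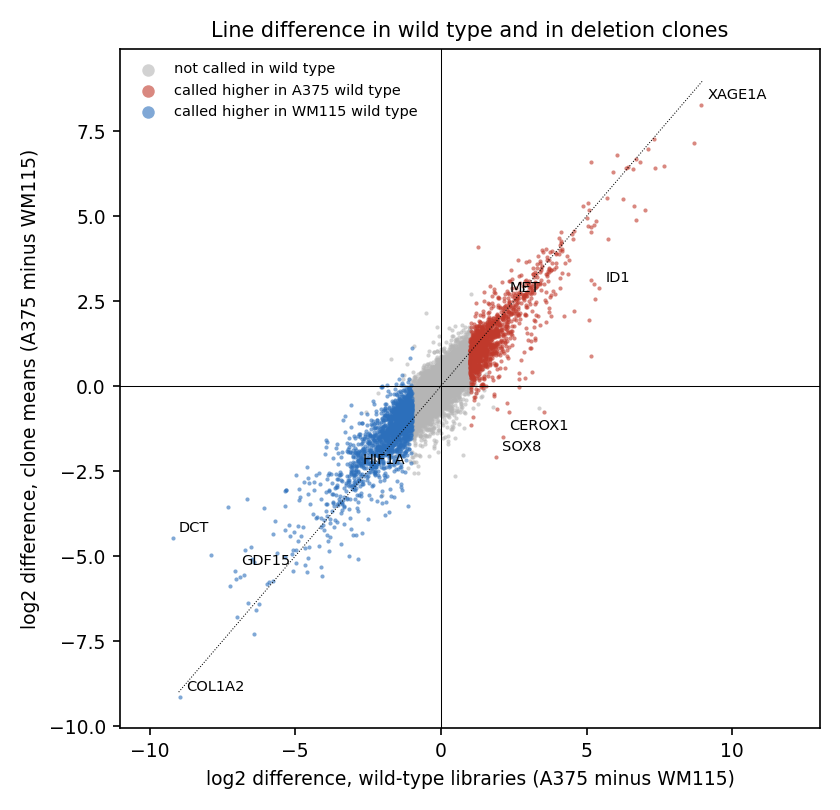
Line difference (log2, A375 minus WM115) of each gene tested in both settings, in wild-type libraries (horizontal axis) and over the means of deletion clones (vertical axis). Points are coloured by the wild-type call, the dotted line marks equal differences, and SOX8 and CEROX1 are the genes called in both settings with opposite signs. Of 3260 genes called in wild type and tested over clones, 3225 have the same sign.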

How the data were processed

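Poly(A)-selected RNA-seq libraries of A375 and WM115 were measured, 4 wild-type libraries of each line and 31 of deletion clones. The authors deposited 1 gene table and 1 transcript table in TPM. The submitters' processing notes name DRAGEN and GRCh38, and how these were used is not given in the sources used here. Without read counts the depth of each library is unknown, so no counting interval was computed and a gene at 0 is described as listed at 0. Each table has 6 columns whose names fit no sample, which were left out. Repeated identical lines were used once.

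The test was limma 3.58.1 (R 4.3.3) on log2(TPM + 1), with a trend of variance on mean expression and Benjamini-Hochberg adjustment over all tested genes. Genes below 1 TPM in more than 4 of 8 libraries were left out, and a call needed an adjusted p below 0.05 and a difference of 1 or more. The clone comparison used clone means in the same way. Shares were compared with an exact permutation test. The fit was tested on simulated data. The comparison, its members and the lists were chosen with earlier results of these data known. The genes named are the 10 furthest in each direction among protein-coding calls without overlap, in each list the 3 furthest called members in each direction and the most abundant uncalled one, and 13 genes fixed by name. Further list members are given as examples chosen after their values were seen. Gene positions are from GENCODE 29 (GRCh38), and promoters from RefSeq (GRCh38.p14). Some list members are counted but not reported here by name. Lists are described by counts and medians, with no set test. Alternatives covered the pseudocount, the filter, scaling, the variance trend, the groups in the fit, the size of a call, a replicate block and leaving out each library or clone.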

Additional observations from a re-analysis of the deposited data

Results flagged for a closer look

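For the named genes, each group of 4 wild-type libraries was checked for a library whose gap to the nearest other, as a part of the group's range, exceeded Dixon's 95% critical value, and 20 of 252 groups had such a library, with the mitochondrial share as a further case. Chance gives about 1 in 20 groups. Of the 20 cases, 15 were in A375 replicate 2 or WM115 replicate 3. In A375, replicate 2 stood apart 8 times. It was low for XAGE1B (63.4 TPM, others 107 to 115), CDK2 (39.7), ATP5F1B (487) and HMGCS1 (12.0), and high for ZMAT3 (14.8), BBC3 (16.4), NFKB2 (81.5) and HOXC10 (58.8). A375 replicate 3 was high for MT-ND1 (1474 TPM) and for the share of mitochondrially encoded genes (4.92%, others 1.21% to 1.66%), and low for EGFR (2.46). A375 replicate 4 was low for SPARC (2090.4 TPM).

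In WM115, replicate 3 was low for MAFF (105 TPM), CTNNB1 (245), PPARGC1A (2.05), GLUL (45.0) and TKT (1911), and high for TP53I3 (13.7) and RRM2 (401). WM115 replicate 4 was low for WNT5A (4.74 TPM, others 18.1 to 19.2) and BMP7 (13.8).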

How the results depend on the processing

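Counts of calls followed the size and level asked for. With a mean TPM of at least 5, 2247 genes were called in wild type (920 higher in A375, 1327 higher in WM115) and 1733 over clones (794 and 939). With no minimum difference the counts were 7339 (3327 and 4012) and 6994 (3955 and 3039), and with a minimum of 2 in wild type 981 (386 and 595). Leaving out each wild-type library in turn gave 3433 to 3883 calls, the highest without WM115 replicate 3. Median-of-ratios scaling, quantile normalization and rescaling moved the median of all genes by 0.063, 0.077 and -0.062, and A375 held 45.57%, 47.67% and 37.58% of calls, against 41.87%.

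With a minimum difference of 2, members called were 9 neural crest and glial, 3 undifferentiated, 4 receptor kinase, 3 ERK, 0 PI3K and p53, 3 G1, 3 Wnt, 7 TGF-beta and BMP, 8 NF-kB, 3 interferon, 11 antigen presentation, 1 mitochondrial biogenesis, 5 glycolysis, 6 sterol, 2 amino acid, 2 antioxidant, 4 matrix, 1 apoptosis, 0 cell cycle and 4 HOX genes. At 0 calls for the PI3K and p53 list, limma had called 7 members at a minimum of 1. With no minimum, 17 ERK, 11 PI3K and p53, 17 Wnt, 13 interferon, 13 mitochondrial biogenesis, 14 amino acid, 12 apoptosis and 19 HOX genes were called. With a mean TPM of at least 5, 6 Wnt and 6 HOX genes were.

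The cell cycle list was the least stable, with 0 members called with no filter, 4 with median-of-ratios scaling, 5 with all 39 libraries in the fit, 0 to 11 when a library was left out (11 without A375 replicate 2, 4 without WM115 replicate 3), and 13 without both. The undifferentiated list gave 6 to 12 when a library was left out and 13 without both. Of 118 named genes called in wild type, 108 kept the call under every alternative run for single genes, which left the minimum difference at 1, 10 lost it at least once and 0 changed direction. Those 10 were BNIP3, CYCS, TFRC, MCM2, CENPF, EGR1, GBP2, TFB2M, CDK2 and BIRC2. Of 26 not called, 6 gained a call at least once, among them AXL, FTH1, PAGE5, SLC7A5 and TGFBI. Of 100 named genes called over clones, 86 kept the call, 14 lost it and 0 changed direction.

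Same-numbered libraries of the lines deviated from their means with correlations of -0.15, 0.01, 0.05 and -0.23, so the numbers do not pair them. A fit with the replicate number as a block called 3463 genes, 1452 higher in A375 and 2011 higher in WM115; BNIP3 lost its call there (adjusted p = 0.0517) and SLC7A5 gained one (adjusted p = 0.0279). Depth is unknown, so how far counting error limits low genes cannot be given.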

Other observations

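Among protein-coding genes called with libraries that did not overlap, several of the widest differences lay outside the groups described above. IL13RA2, a decoy receptor for interleukin 13 that is also counted among tumour antigens, was at 713, 1074, 1100.4 and 449 TPM in A375 and 0.658, 0.935, 2.34 and 0.262 in WM115 (8.68 ± 0.35, adjusted p = 7.32e-08). PDLIM4, a cytoskeletal LIM protein, was at 183, 149, 191 and 126 TPM in A375 and 0, 0, 0.048 and 0 in WM115 (7.31 ± 0.16). MEOX2, a homeobox factor of mesoderm, was at 151, 119, 116 and 85.1 TPM in A375 and 0.075, 0, 0.025 and 0 in WM115, and MFAP2, a microfibril protein, at 104, 133, 104 and 78.8 in A375 and 0, 0, 0.019 and 0 in WM115. A375 was high for these 4 genes in each library, and WM115 had little or none. GTSF1, a germline gene of transposon silencing, was listed at 0 in all WM115 libraries and at 151, 117, 154 and 126 TPM in A375. PDLIM4, MEOX2, MFAP2 and GTSF1 were under 1 TPM in every WM115 library. They passed the filter through A375 alone, so it fixed their direction.

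On the WM115 side, MRGPRX3, a G protein-coupled receptor, was at 1.52, 0.617, 1.2 and 0.403 TPM in A375 and 320.0, 280.0, 271 and 275 in WM115 (-7.25 ± 0.19). RNASE1, a secreted ribonuclease, was at 0.198, 0, 0 and 0 TPM in A375 and 108, 106, 70.1 and 197 in WM115 (-6.76 ± 0.27). MAG, a myelin-associated glycoprotein of glia, was at 0.079, 0.098, 0 and 0.268 TPM in A375 and 141, 144, 151 and 132 in WM115, and it stood beside the glial gene S100B on the same side. RNASE1 and MAG were under 1 TPM in every A375 library and passed the filter through WM115 alone, so it fixed their direction. SLC16A6, a monocarboxylate transporter, was at 0.601, 0.343, 1.11 and 0.932 TPM in A375 and 272, 208, 113 and 391 in WM115 (-7.03 ± 0.33). Over clones the differences were 7.16 for IL13RA2, 7.26 for PDLIM4, -5.88 for MRGPRX3, -5.56 for RNASE1, -6.79 for MAG and -5.67 for SLC16A6.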
